A study of Mus musculus with 6 samples.

Results

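The genes described here are Ramp1, Emb, Sdc4, Plxnd1, Grb10, Slamf6, Cd33, Cd47 and Il12rb2, 9 of the 18193 genes measured in Pax5-deficient pro-B cells. They were taken as genes described as repressed by Pax5 that encode membrane proteins or, for Grb10, a cytoplasmic adaptor. Every probe set whose platform annotation gave exactly 1 of these symbols was used and kept separate, which gave 22 of 45037 probe sets. The EBF group was 3 arrays of Pax5-/- mouse pro-B cells infected with the Mig-EBF retrovirus, which carries the transcription factor EBF, and the control group was 3 arrays of Pax5-/- pro-B cells infected with the MigR1 retrovirus. Both groups lacked Pax5, were kept in 5 ng/ml IL-7 over a feeder layer of ST2 stromal cells from bone marrow, and were sorted for GFP 2 days after infection. No cells with Pax5 were compared, so these arrays do not test the repression by Pax5 that gives the genes their description. The labels number the arrays but do not say whether they came from separate cultures or animals, so the p-values measure only how these arrays vary, and that spread may be technical.

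Pax5 fixes the B cell fate of pro-B cells by activating B cell genes and by silencing genes of other lineages, many of which encode receptors, adhesion molecules and signalling proteins. EBF acts before and together with Pax5, and both factors share many targets. Pro-B cells without Pax5 keep much of the silenced program switched on, and the comparison asks which of it responds to EBF when Pax5 is missing. In bulk RNA, fewer cells of a type and less RNA per cell cannot be told apart.

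The promoters of Ramp1 and Emb, the genes whose arrays separated past the threshold, are shown with that of Sdc4, which holds the EBF motif spelled TCCC, any 2 bases, GGGA. Each line is the 250 bases before the gene's start on its own strand, from RefSeq on GRCm38.p6. Capitals mark the full motif in Sdc4 and the shorter inner form (CCC, any 2 bases, GGG) in Ramp1, and Emb has neither.
Ramp1: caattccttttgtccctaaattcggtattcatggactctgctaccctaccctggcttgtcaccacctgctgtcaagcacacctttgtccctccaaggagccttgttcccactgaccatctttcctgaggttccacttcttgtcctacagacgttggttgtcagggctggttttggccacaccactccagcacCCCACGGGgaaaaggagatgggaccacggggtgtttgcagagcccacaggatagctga
Emb: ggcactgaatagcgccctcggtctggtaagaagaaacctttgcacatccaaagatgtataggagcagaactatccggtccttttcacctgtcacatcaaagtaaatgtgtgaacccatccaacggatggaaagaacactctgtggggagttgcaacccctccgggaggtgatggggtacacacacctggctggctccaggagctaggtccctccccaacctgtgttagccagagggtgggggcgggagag
Sdc4: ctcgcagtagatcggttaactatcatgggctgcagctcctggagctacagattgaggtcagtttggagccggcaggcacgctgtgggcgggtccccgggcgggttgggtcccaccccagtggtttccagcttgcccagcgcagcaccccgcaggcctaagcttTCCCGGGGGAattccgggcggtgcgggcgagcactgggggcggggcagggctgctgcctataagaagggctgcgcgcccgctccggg
The Ramp1 sequence is chr1:91179572-91179821 on the plus strand, and its inner form begins 58 bases before the start. The Emb sequence is chr13:117220323-117220572 on the plus strand. The Sdc4 sequence is chr2:164443189-164443438 on the minus strand, and its motif begins 87 bases before the start. Both spellings read the same on the 2 strands, and every full motif contains the inner form. In windows from 250 bases before to 50 after the start, 0.904% of the 32851 RefSeq promoters held the full motif and 13.7% held the inner form. All 9 genes had such a window, 11 windows in all. The full motif was in a window of 2 of the 9 genes, Sdc4 and Grb10, and the inner form in a window of 6. These counts are per gene, whereas the shares over all promoters are per window. Grb10 and Cd47 had more than 1 window each, and only 1 of those of Grb10 held the full motif. A match is a run of letters and not a measured binding site.

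Ramp1 and Emb fell in the EBF arrays, Il12rb2 did not pass with all 6 arrays unless same-numbered arrays were compared with each other, and the other 6 genes passed in neither fit. Of the 22 probe sets 3 fell, 0 rose and 19 did not pass (limma, Benjamini-Hochberg adjustment over all probe sets, threshold 0.05). At an unadjusted p below 0.05 there were 6 lower and 1 higher. The share called was 13.6% of the member probe sets, against 0.875% of all probe sets (0.531% lower and 0.344% higher). With the replicate number as a block, 3 fell and 1 rose, against 7.28% of all probe sets (2.40% lower and 4.88% higher). EBF and control arrays did not overlap for 10 of the 22, 9 lower and 1 higher, against 23.2% of all probe sets, 7.67% lower and 15.5% higher. The median log2 difference was -0.11 over the 22 and 0.02 over all probe sets. Probe sets annotated to the same gene were read on the same arrays and are not separate evidence. The 9 genes were chosen with earlier results of these arrays known, so these shares are not independent evidence of a direction.

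**Figure D1:**
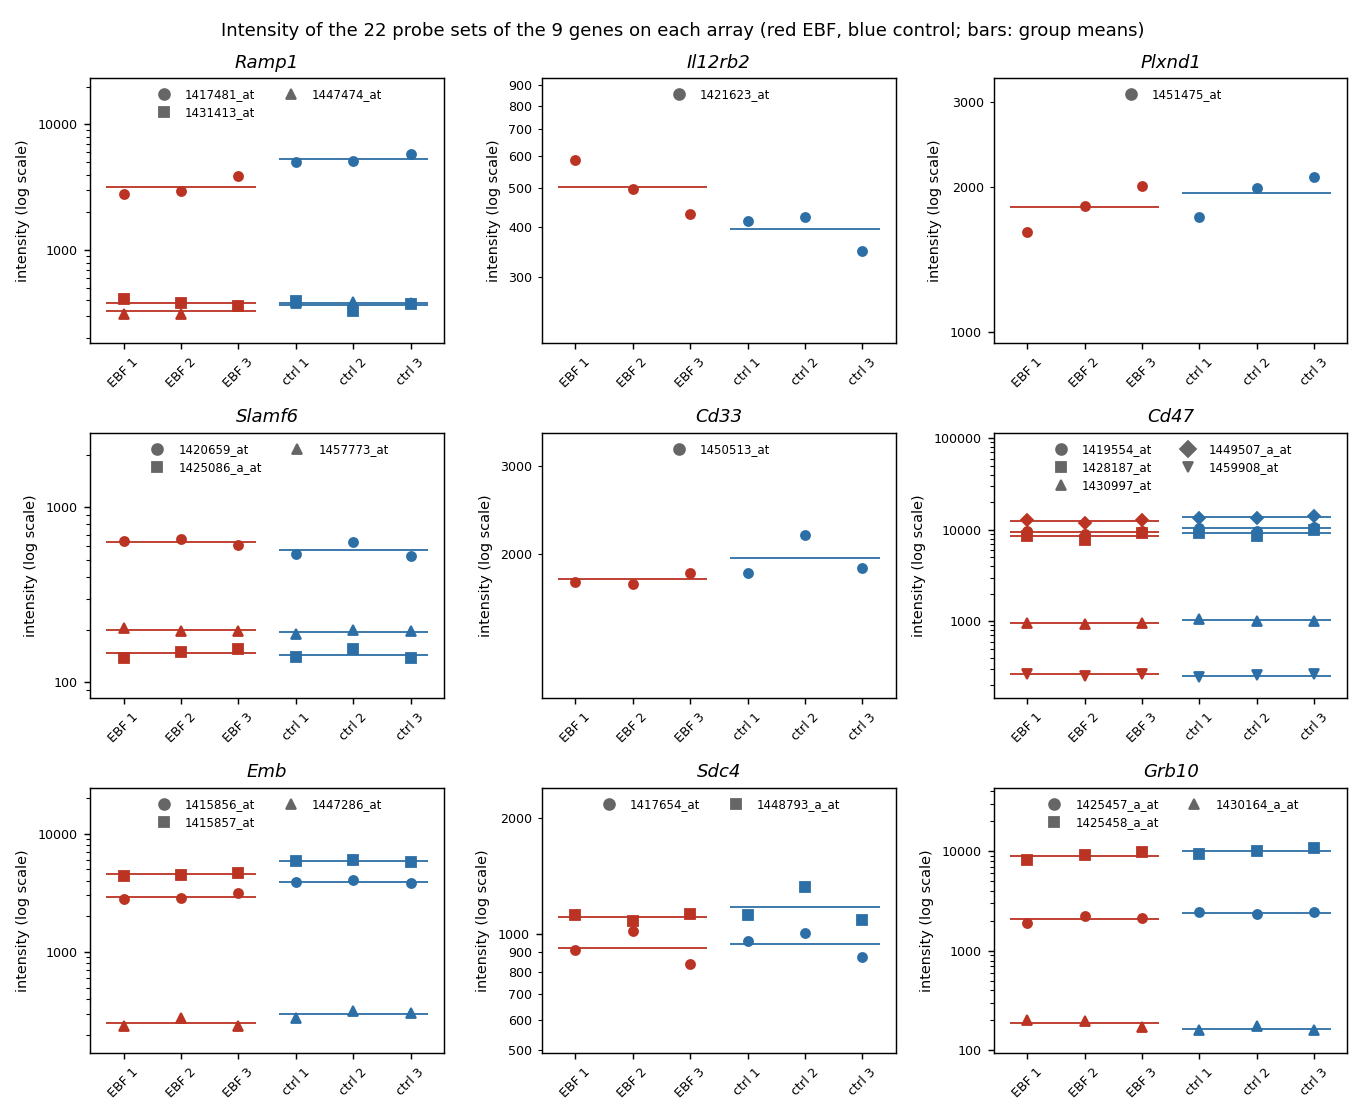
Intensity of each of the 22 probe sets, on a log scale, for the 3 EBF arrays (red) and the 3 control arrays (blue, ctrl), with 1 panel per gene. Symbols tell the probe sets of a gene apart and horizontal bars are group means. The EBF arrays lie below the control arrays for Ramp1 1417481_at and 1447474_at and for all 3 Emb probe sets. The same holds for Grb10 1425457_a_at, Cd33 1450513_at, and Cd47 1430997_at and 1449507_a_at. They lie above the control arrays for Il12rb2.

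Ramp1 encodes a single-pass membrane protein that joins the calcitonin receptor-like receptor, the product of Calcrl, to form the receptor for the neuropeptide CGRP. Probe set 1417481_at, annotated by a RefSeq mRNA, read 2805, 2974 and 3860.5 in EBF 1, 2 and 3, against 5001, 5101 and 5796 in control 1, 2 and 3. The groups did not overlap, and EBF 3 was the EBF array nearest to the controls. The means were 3213 ± 567 in EBF and 5299.6 ± 433 in control (SD, n = 3 each), a log2 difference of -0.73 ± 0.12 (SE) with a 95% confidence interval of -1.01 to -0.44, or 1.66-fold lower (limma adjusted p = 0.0428). The call was lost without EBF 1, EBF 2 or any 1 control array (highest adjusted p 0.194), while without EBF 3 the difference was -0.87 (adjusted p = 0.00467). It was also lost with the lower pseudocount of 16 (adjusted p = 0.0530).

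The other Ramp1 probe sets were dimmer. 1447474_at read 314, 311 and 362 in EBF, against 382, 389 and 382 in control, again without overlap (log2 -0.21 ± 0.08, limma adjusted p = 0.213). 1431413_at read 408, 381 and 362 in EBF, against 395, 332 and 377 in control, with overlap (0.06 ± 0.09). These readings lie within the range of the 27 control probe sets for Bacillus transcripts, taken here as up to 410, their highest reading on any array (EBF 2). On single arrays some readings were above those controls. 1431413_at read 408 in EBF 1, where the controls reached 324, and 395 in control 1, where they reached 394. 1447474_at read 389 in control 2, where they reached 372. Whether the dim probe sets read Ramp1 RNA is not known here.

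With all 6 arrays the partners of Ramp1 passed in neither fit. The brightest Calcrl probe set read 631, 673 and 996 in EBF, against 944, 875 and 1091 in control (log2 -0.35 ± 0.16, limma adjusted p = 0.289, with the replicate block 0.0531). EBF 3 was inside the control range there, as it was nearest to the controls for Ramp1. When 1 array was left out, that difference lay between -0.55 and -0.23 (limma adjusted p 0.0214 to 0.621). Calcrl 1418489_a_at had -0.03 and 1459536_at 0.19. Ramp3, a sister of Ramp1 that also pairs with this receptor family, read 750.3, 1070.2 and 1459 in EBF, against 736, 891 and 1038 in control (0.25 ± 0.22). Ramp2 had a log2 difference of -0.02, at readings within the range of the Bacillus controls. By the distance between centred log2 values over the 6 arrays, the probe sets most like Ramp1 1417481_at among 27671 others were those of Samhd1 (distance 0.0922), Ablim1 (0.0943) and Bex6 (0.144), which had log2 differences of -0.76, -0.72 and -0.70.

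Il12rb2 encodes the chain of the interleukin-12 receptor that activates STAT4 in T and NK cells. Its probe set 1421623_at read 585, 496 and 431 in EBF 1, 2 and 3, against 413, 422 and 349 in control 1, 2 and 3. The groups did not overlap, but EBF 3 and control 2 lay close together, and control 3 was within the range of the Bacillus controls. The means were 504 ± 77.5 in EBF and 395 ± 40.0 in control (SD, n = 3 each), with a log2 difference of 0.32 ± 0.12 (SE) and a 95% confidence interval of 0.05 to 0.59 (limma adjusted p = 0.205, with the replicate block 0.0446). The differences between same-numbered arrays were 0.47, 0.22 and 0.28. Without EBF 3 the difference was 0.42 (adjusted p = 0.0485), and without EBF 3 and control 2 it was 0.47 (adjusted p = 0.0722).

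The gene of the receptor's other chain did not pass. Il12rb1 read 322, 330 and 372 in EBF, against 356, 326 and 364 in control, with a log2 difference of -0.03 ± 0.08. Those Il12rb1 readings lie within the range of the Bacillus controls. Stat4 read 808, 892 and 1014 in EBF, against 1127, 1084 and 1344 in control, each EBF array below each control array (log2 -0.38 ± 0.11; limma adjusted p = 0.150, with the replicate block 0.0229). Of 7 NK cell markers measured, 2 fell, Klrd1 and Nkg7, 0 rose, and the summed level of the list was 2484 to 2726 in EBF and 5026 to 6610 in control. Without these genes the sum of the remaining 5 was 1390.2 to 1468 in EBF and 1342 to 1435 in control, and the median log2 difference of the whole list was 0.0051. Tbx21, a factor that drives Il12rb2 in T cells, was below the Bacillus control median (mean 96.1 in EBF and 98.0 in control). The part of NK-type transcripts in these values was not tested.

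Plxnd1 encodes plexin D1, the receptor for the guidance protein semaphorin 3E. Its 1 probe set read 1614, 1826 and 2010.2 in EBF, against 1736, 1987 and 2096 in control. In both groups the array numbered 1 was lowest and that numbered 3 highest, and the groups overlapped widely. The log2 difference was -0.09 ± 0.10, with a 95% confidence interval of -0.33 to 0.14. The ligand gene Sema3e read 352, 277 and 277 in EBF, against 232, 245 and 195 in control, at its brightest probe set (log2 0.38 ± 0.11; limma adjusted p = 0.156, with the replicate block 0.0383). That level is also within the range of the Bacillus controls, and its other 3 probe sets had differences of -0.03 to 0.13.

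Slamf6 encodes a receptor of the SLAM family that binds itself on neighbouring lymphocytes and signals through the adaptor SAP. Probe set 1420659_at, annotated by a RefSeq mRNA, read 643, 664 and 606 in EBF, against 538, 636 and 529 in control, with control 2 inside the EBF range. The log2 difference was 0.16 ± 0.09, with a 95% confidence interval of -0.04 to 0.36 (limma adjusted p = 0.351). The other 2 probe sets read 138 to 205 over the EBF arrays and 138 to 200 over the control arrays, within the range of the Bacillus controls.

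Among the relatives of Slamf6, Cd244a fell. It encodes 2B4, the receptor for CD48 on NK cells, and its brightest probe set read 425, 420.4 and 428 in EBF, against 717, 682 and 842 in control (log2 -0.77 ± 0.09, limma adjusted p = 0.00925). Its second probe set fell by 1.18 on the log2 scale. Cd48, the ligand gene, read 2836, 3323 and 3157 in EBF, against 4302, 4018 and 4349 in control, without overlap (log2 -0.44 ± 0.08; limma adjusted p = 0.0564, with the replicate block 0.0179). Slamf7 had a log2 difference of 0.60 ± 0.20 (adjusted p = 0.185, with the replicate block 0.00859), so members of this receptor family lay on both sides of 0.

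Cd33 encodes a sialic acid-binding receptor of the Siglec family, used as a myeloid marker. Its 1 probe set read 1753, 1741 and 1829 in EBF, against 1831, 2181 and 1875 in control. The groups did not overlap, but EBF 3 and control 1 differed by little and control 2 stood above the rest. The log2 difference was -0.14 ± 0.08, with a 95% confidence interval of -0.33 to 0.05 (limma adjusted p = 0.404). Of 8 myeloid markers 1 fell, Lyz2, and the summed level of the list was 4969 to 5268 in EBF and 5008 to 5588 in control, with control 2 the highest there too. The part of myeloid transcripts in the Cd33 value was not tested. Among other Siglec genes, Cd22, a B cell inhibitory receptor, had a log2 difference of -0.12 at its brightest probe set, and Siglecg had 0.03. The dimmer Cd22 probe set 1419769_at read 280, 288 and 381 in EBF, against 385, 344 and 467 in control, with overlap. Its difference was -0.31 (limma adjusted p = 0.272, with the replicate block 0.0457).

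Cd47 encodes the surface protein that binds SIRP alpha on phagocytes and restrains engulfment. Its brightest probe set, 1449507_a_at, read 12660.2, 11799 and 12951 in EBF, against 13567, 13409 and 14168 in control, without overlap (log2 -0.14 ± 0.07, limma adjusted p = 0.334). The 3 other probe sets above the range of the Bacillus controls had differences of -0.13, -0.13 and -0.10, and the dim one had 0.04. At the brightest probe set the 95% confidence interval was -0.30 to 0.03. For 1419554_at the differences between same-numbered arrays were -0.13, -0.12 and -0.13, yet the blocked fit gave an adjusted p of 0.315. Sirpa, the gene of its partner, had a log2 difference of -0.11 ± 0.11.

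Emb encodes embigin, an immunoglobulin-type membrane protein that accompanies monocarboxylate transporters to the surface and takes part in adhesion. Probe set 1415857_at read 4399, 4508 and 4635 in EBF, against 5909, 6037 and 5784 in control. Probe set 1415856_at, annotated by the same sequence record, read 2777, 2879 and 3139 in EBF, against 3919, 4017 and 3854 in control. At both, every EBF array was well below every control array and the spread within a group was small. The means at 1415857_at were 4514 ± 118 in EBF and 5910.0 ± 127 in control (SD, n = 3 each), a log2 difference of -0.39 ± 0.07 (SE; 95% confidence interval -0.54 to -0.23), or 1.31-fold lower (limma adjusted p = 0.0443). At 1415856_at the log2 difference was -0.42 ± 0.07, or 1.34-fold lower (limma adjusted p = 0.0470).

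Both Emb calls were lost in the same way as that of Ramp1, without EBF 1, EBF 2 or any 1 control array (highest adjusted p 0.203 and 0.192 at 1415856_at and 1415857_at) and with the pseudocount of 16 (0.0576 and 0.0548). The size changed little: leaving out 1 array gave -0.47 to -0.38 at 1415856_at and -0.41 to -0.37 at 1415857_at. The third probe set, 1447286_at, was dim and read 238, 276 and 238 in EBF, against 277, 317 and 304.5 in control (log2 -0.23 ± 0.09, limma adjusted p = 0.206). Slc16a1, which encodes the monocarboxylate transporter MCT1, lay the other way, with 5731, 5839.5 and 5836 in EBF, against 4728, 4418 and 4508 in control (log2 0.35 ± 0.07; adjusted p = 0.0634, with the replicate block 0.0272). Bsg, which encodes basigin, the related chaperone of such transporters, had a log2 difference of -0.04 ± 0.10.

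Sdc4 encodes syndecan 4, a heparan sulphate proteoglycan that acts as a co-receptor at cell contacts. Probe set 1448793_a_at read 1120.5, 1084 and 1131 in EBF, against 1121, 1329 and 1087 in control, and only control 2 stood apart. Probe set 1417654_at read 912, 1017 and 836 in EBF, against 960.5, 1007 and 872 in control. The log2 differences were -0.08 ± 0.09 and -0.04 ± 0.09, with 95% confidence intervals of -0.28 to 0.13 and -0.25 to 0.17. Stromal cells also make syndecans and embigin, so the ST2 list is given here: 0 of its 8 markers passed by limma (1 at an unadjusted p below 0.05), and its summed level was 12988 to 19306 in EBF and 14702 to 25747 in control. The median log2 difference of the ST2 list was -0.31, against 0.03 for all genes. The stromal sum was lowest in EBF 2 and highest in control 3, and its part in the Emb and Sdc4 values was not tested.

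Grb10 encodes an adaptor with an SH2 domain that binds the insulin and IGF-1 receptors and dampens their signal. Probe set 1425458_a_at read 8143, 9177 and 9911 in EBF, against 9337, 10034 and 10754 in control. Like Plxnd1 it was lowest in the arrays numbered 1 and highest in those numbered 3, and the groups overlapped (log2 -0.15 ± 0.09, limma adjusted p = 0.425). Probe set 1425457_a_at read 1925, 2234 and 2139 in EBF, against 2430.3, 2358 and 2434 in control, without overlap (-0.20 ± 0.08, adjusted p = 0.230). The dim probe set 1430164_a_at had a difference of 0.17 ± 0.08. The receptor genes Insr and Igf1r had log2 differences of 0.02 and 0.09.

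**Figure D2:**
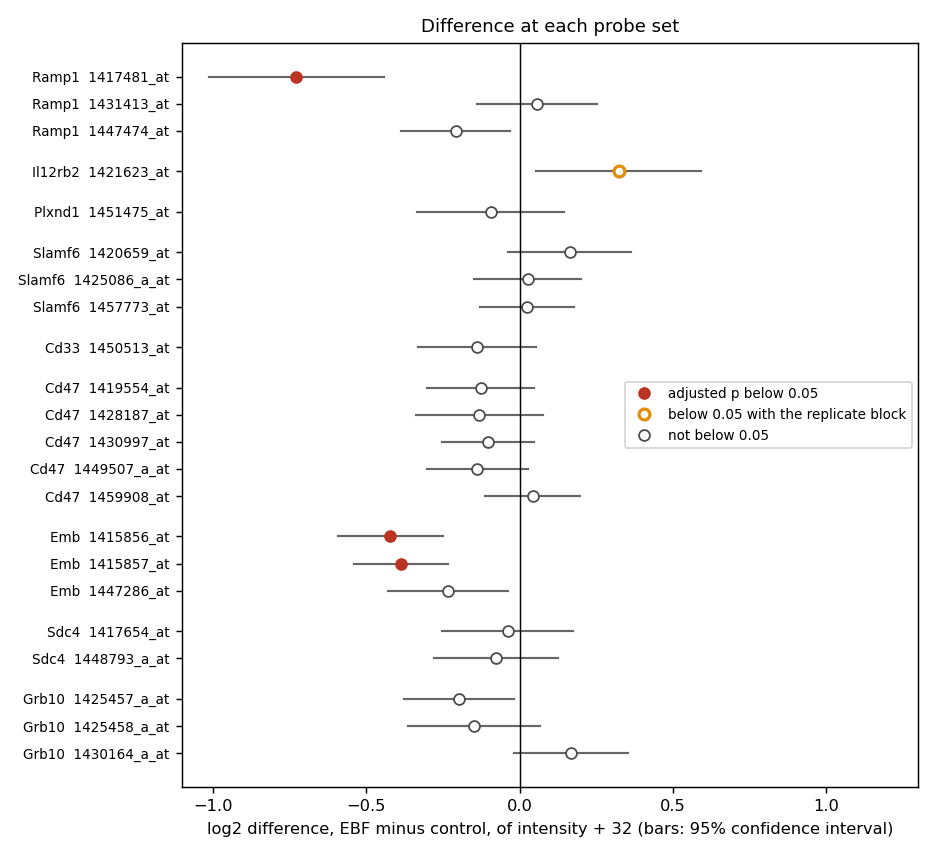
Log2 difference of intensity + 32, EBF minus control, at each of the 22 probe sets, grouped by gene, with the 95% confidence interval from limma. Filled points are the 3 probe sets of Ramp1 and Emb that passed the threshold, and the ringed point is Il12rb2, which with all 6 arrays passed with the replicate block and not without it.

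Same-numbered arrays gave the same picture for the genes that moved. The Ramp1 differences were -0.83, -0.77 and -0.58 for numbers 1, 2 and 3 at 1417481_at, and those of Emb were -0.42, -0.42 and -0.32 at 1415857_at. For both genes the pair numbered 3 showed the smallest difference. For Cd33 and Sdc4 the pair numbered 2 stood apart, with -0.32 and -0.29 at the brightest probe sets, and the Sdc4 pairs numbered 1 and 3 were at -0.0013 and 0.06.

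**Figure D3:**
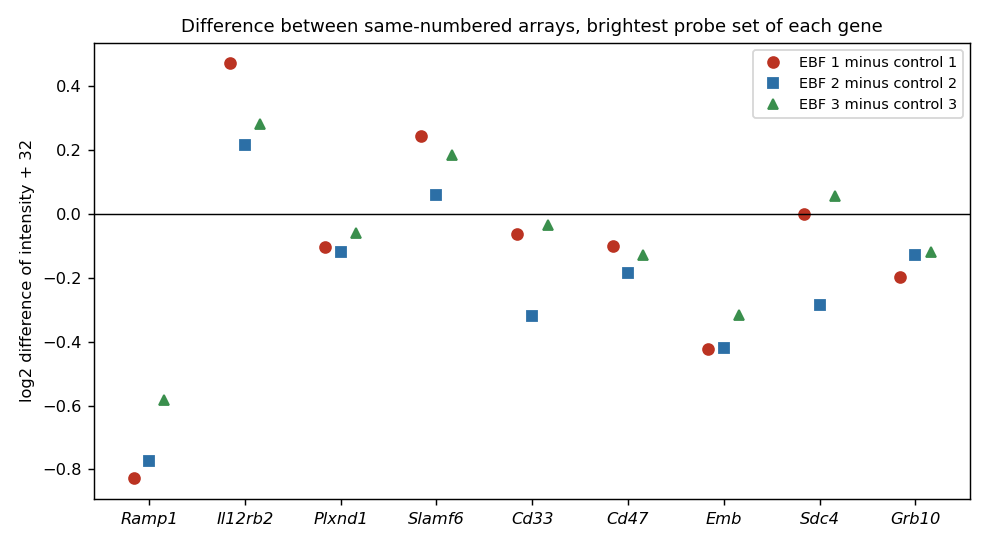
Log2 difference of intensity + 32 between the EBF and the control array of the same number, at the brightest probe set of each gene. All 3 differences lie below 0 for Ramp1, Plxnd1, Cd33, Cd47, Emb and Grb10 and above 0 for Il12rb2 and Slamf6, and those of Sdc4 lie on both sides.

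**Figure D4:**
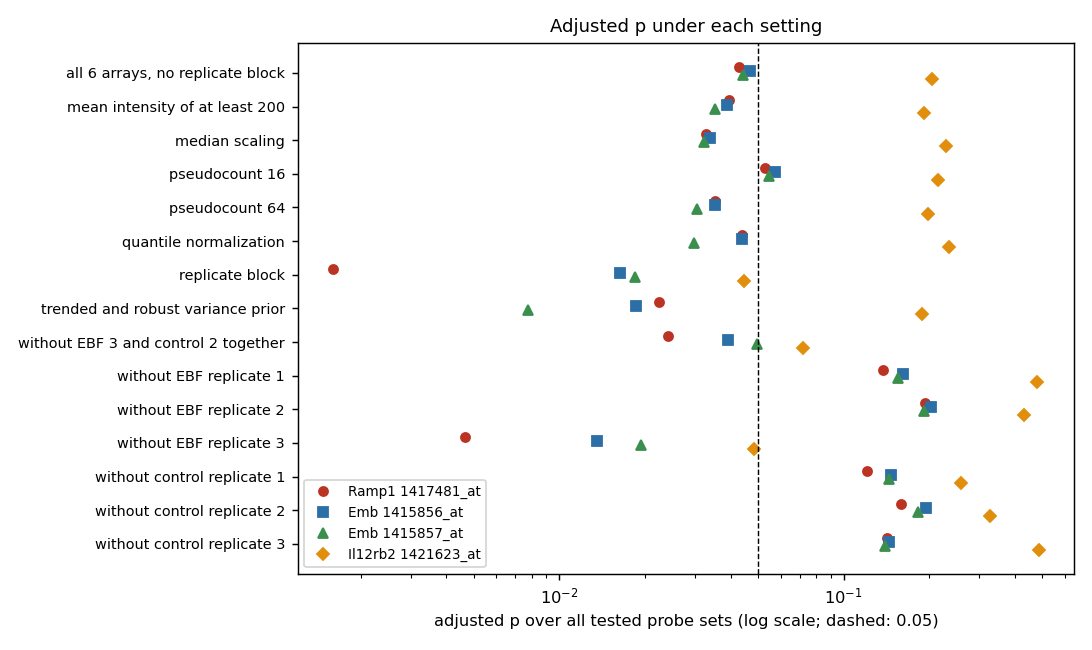
Adjusted p over all tested probe sets, on a log scale, for the 4 probe sets of Ramp1, Emb and Il12rb2 under each setting, with a dashed line at 0.05. The Ramp1 and Emb values cross the line without any 1 array other than EBF 3 and with the pseudocount of 16, and Il12rb2 falls below it with the replicate block and without EBF 3.

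Other genes described as repressed by Pax5 included decreases larger than that of Ramp1, those of Klrd1 and Ccr2. Each gene was read at its brightest probe set, where 1.09% of all genes changed (0.671% lower and 0.418% higher). Of 14 listed genes 13 were measured, and 5 fell, 1 rose and 7 did not pass; with the replicate block 6 fell and 1 rose, against 7.34% of all genes (2.52% lower and 4.82% higher). The list's median log2 difference was -0.23, against -0.14 for the 9 genes and 0.03 for all genes. The list was chosen with earlier results of these arrays known, so its count is not independent evidence of a direction.

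Probe sets of the same gene differed in size. Ccr2, a chemokine receptor gene of monocytes, had 4 probe sets, with -0.92 at the brightest, -1.91 at 1421188_at, -0.23 at 1460067_at, which did not pass (limma adjusted p = 0.176), and -2.16 at 1421187_at. The last read 612, 545 and 588 in EBF, against 2991, 2553 and 2625 in control (limma adjusted p = 6.68e-05). Cd28, the T cell costimulatory receptor gene, had -0.71 and, at 1417597_at, -1.06, and Notch1, a receptor that directs T cell fate, had -0.59 and -0.73. Itgal, an integrin chain of lymphocytes, fell by 0.48 at its brightest probe set and had -0.39 at the other, which did not pass (adjusted p = 0.0525). Klrd1, an NK receptor gene, fell by 2.06. Ccl9, which encodes a chemokine, rose by 0.90 at its brightest probe set and had 0.43 at the other, which did not pass (adjusted p = 0.0624).

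Ccl3, another chemokine gene, read 299.8, 435 and 392 in EBF, against 526, 2122 and 569.9 in control. Control 2 stood far above the other control arrays, and the log2 difference was -1.15 ± 0.45 (limma adjusted p = 0.226, with the replicate block 0.0289). Lmo2, a transcriptional adaptor of progenitors, read 2697, 2958 and 2843 in EBF, against 3270.1, 3309 and 3365 in control (-0.23, adjusted p = 0.164). At their brightest probe sets Csf1r (-0.01), Flt3 (-0.12), Prdm1 (-0.02), Xbp1 (-0.0013) and Jchain (-0.08) passed in neither fit. Xbp1 1420012_at read 635, 694 and 471 in EBF, against 449, 449 and 359 in control, without overlap. Its log2 difference was 0.48 (limma adjusted p = 0.161, with the replicate block 0.0108), while Xbp1 1420011_s_at had 0.09 and 1437223_s_at -0.0036. Csf1r 1419872_at lay lower without overlap (-0.19, adjusted p = 0.234), and Csf1r 1419873_s_at had 0.01. Prdm1 read within the range of the Bacillus controls. The count of 6 changed genes was 3 without EBF 2, 2 without control 1 and 3 without control 2.

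Of 42 listed relatives, ligands and signalling partners of the 9 genes, 40 were measured, each read at its brightest probe set, and 1, Cd244a, changed. Of all genes, 1.09% changed. With the replicate block 3 were higher, Slc16a1, Sema3e and Slamf7, and 3 lower, Cd244a, Cd48 and Stat4. Dimmer probe sets of other listed genes also passed with the block and are not in these counts. Il6st 1452843_at (-0.55) and 1460295_s_at (-0.31) and Cd22 1419769_at (-0.31) were lower, and Plxnc1 1443433_at (0.33) was higher. The block called 7.34% of all genes, 4.82% higher and 2.52% lower. The median of the list was -0.04, against 0.03 for all genes. Cd244a missed the threshold without EBF 2. Without EBF 3, 6 of the 40 genes changed, in a fit that called 4287 of all 45037 probe sets.

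**Figure D5:**
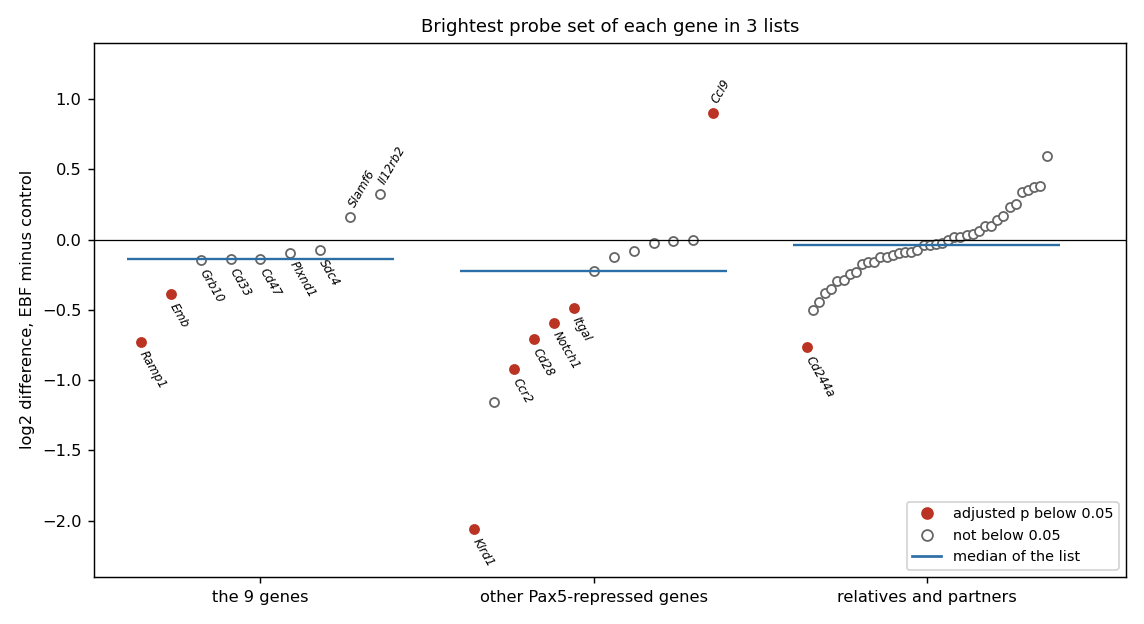
Log2 difference, EBF minus control, at the brightest probe set of each gene in the 9 genes, the other genes described as repressed by Pax5 and the relatives and partners, each sorted from lowest to highest. Filled points passed the threshold and lines are list medians of -0.14, -0.23 and -0.04.

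The arrays were even in brightness, with medians of 439 to 445 in EBF and 424 to 451 in control. Of the Ebf1 probe sets, the brightest read 4082 to 4772 in EBF and 4029 to 4276 in control, with overlap (log2 0.12, limma adjusted p = 0.469). 1439789_at read 1303 to 1377 in EBF and 1596 to 1847 in control, lower without overlap (-0.33; adjusted p = 0.106, with the replicate block 0.0443). 1448293_at also lay lower without overlap (-0.20, adjusted p = 0.206), and the other 2 had -0.10 and 0.06. None was higher past the threshold in either fit, and whether any lies in the part carried by the virus is not known here, so they do not check the labels. The 8 markers of the B lineage list had summed levels of 55025 to 56384 in EBF and 46113 to 47795 in control, with 1 lower, Dntt, and 0 higher past the threshold. With the replicate block 3 were higher, Cd79b, Igll1 and Il7r. Transcripts of the B lineage were present in both groups. The T cell list had 3894 to 4432 in EBF and 4083 to 4538 in control, with 1 of 6 lower, Cd5. The erythroid and mast cell list had 3990 to 4206 in EBF and 3566 to 3660 in control, with 0 of 6 past the threshold by limma and 1, Epor, at an unadjusted p below 0.05 and past the threshold with the replicate block (adjusted p = 0.0151). EBF 3 correlated least with its group, at a mean r of 0.979, against 0.983 to 0.988 for the other arrays, which is across probe sets of above-median brightness.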

How the data were processed

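The authors deposited linear intensities, 1 per probe set and array, for 6 arrays hybridised with biotin-labelled cRNA from 6 microg total RNA, per the labels' protocols. The sources used here do not say how those intensities were normalized, or by which software. The design text names a rat array, but the organism label and the platform annotation are those of the mouse. No further scaling was applied. The 64 Affymetrix controls were left out and 45037 probe sets tested as log2(intensity + 32), so that fold changes understate those of dim probe sets. EBF minus control was tested two-sided by lmFit and eBayes of limma 3.58.1 (R 4.3.3) with no covariate, with Benjamini-Hochberg adjustment over all probe sets and a threshold of 0.05. Genes in lists were read at the brightest probe set over all arrays. The number of arrays limits the precision, and no detection calls were used.

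Whether replicate numbers pair the arrays was checked on 22518 probe sets of above-median brightness. After subtraction of group means, the EBF and control arrays numbered 1, 2 and 3 correlated at 0.316, 0.251 and 0.505. Each exceeded 0.1, so the replicate number was also used as a block in an alternative fit. The main fit took no account of the pairing, and no label states such a pairing. The 9 genes and the lists were chosen with earlier results of these data known. All 9 genes were named whatever their result, and from the other lists those past the threshold; other genes named were chosen as partners of the 9 or after their values were seen. On simulated data with 200 changed of 45037 probe sets, this fit recovered 61.0% of 1.5-fold and 84.0% of 2-fold changes. The simulated noise was independent for each array, without the correlation of same-numbered arrays, so these rates may not hold for the real arrays. The 14 alternatives were other pseudocounts, scalings, a filter on dim probe sets, another variance prior, the replicate block and arrays left out.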

Additional observations from a re-analysis of the deposited data

How the results depend on the processing

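Of 305 differences of the 22 probe sets recomputed under the alternatives, 276 kept their direction and their side of the threshold, 18 lost the call, 2 gained it and 9 changed sign; the cause was not tested. The replicate block left the 3 calls of Ramp1 and Emb and added Il12rb2, and moved the count of all changed probe sets to 3280, of which 2199 were higher. The count of all 394 changed probe sets became 611 with a trended and robust variance prior and 1887 without EBF 3 and control 2, and lay between 79 and 4287 when 1 array was left out (119, 79 and 4287 without EBF 1, 2 and 3, and 95, 83 and 214 without control 1, 2 and 3). The 3 changed member probe sets became 0 with the pseudocount of 16, and 0 to 4 when 1 array was left out (4 without EBF 3, 0 otherwise). The 6 other Pax5-repressed genes became 2 to 6 when 1 array was left out. The 1 changed relative or partner became 3 with only probe sets of a mean intensity of at least 200, 3 with the pseudocount of 64, 2 with quantile normalization, 6 with the replicate block, 3 with the trended and robust prior, 3 without EBF 3 and control 2, and 0 to 6 when 1 array was left out. Signs changed at values near 0: Sdc4 1417654_at was 0.071 without EBF 3 and control 2, Slamf6 1425086_a_at was -0.026 and 1457773_at -0.019 with quantile normalization, and Slamf6 1457773_at was -0.0013 with median scaling. When 1 array was left out, Ramp1 1431413_at lay between -0.0093 and 0.11, Sdc4 1417654_at between -0.11 and 0.027, Sdc4 1448793_a_at between -0.13 and 0.0095 and Slamf6 1425086_a_at between -0.0027 and 0.071. Probe sets within the range of the Bacillus controls limit what can be said of the dim readings.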
